A study of Solanum lycopersicum with 36 samples.

Results

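This report describes how the leaf transcriptome of grafted tomato seedlings (GSs) read at 48 h of NaCl differed from that of GSs read at 0 h, before NaCl was given. The GSs carried a scion of the salt-sensitive cultivar Zhongza 9 on a rootstock of the salt-tolerant tomato QZ-006, and the scion and rootstock were joined by split grafting. Roots stood in aerated Hoagland solution, to which NaCl was added at 175 mM, and leaves were taken. The 6 libraries compared, of 36 in the series, were chosen by their labels alone: the GS 48 h libraries 10, 11 and 12 and the GS 0 h libraries 1, 2 and 3. The libraries of a group are biological replicates. The GSs at 6, 12, 24 and 96 h, and the nongrafted seedlings (NGSs) of Zhongza 9 at 48 h and 0 h in the same solution, serve only to show where the change in the GSs at 48 h differed. The leaves of GSs and NGSs thus belonged to the same cultivar, and 1 rootstock was used. No unstressed seedlings were sequenced after 0 h, so salt cannot be told apart from the 48 h that had passed, which were whole days.

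Salt in the root solution lowers the water that leaves can draw and, later, brings Na+ into them. The leaf hormone abscisic acid is made from carotenoids under such stress, is held in check by its own breakdown and by protein phosphatases, and switches on genes for dehydrins and other late embryogenesis abundant (LEA) proteins, for lipid transfer proteins of the leaf surface and for enzymes that make protective sugars. Growth, with its needs for new ribosomes, histones and cell wall, commonly slows at the same time, and Na+ that has entered leaf cells can be pumped into the vacuole in exchange for protons.

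Expression is given as FPKM, the reads on a gene over its length and over a library size that had been scaled between libraries. Differences are given as log2 fold changes of FPKM + 1, 48 h minus 0 h, which understate the change of genes at low FPKM, with the standard error (SE) of the fit. A gene was called a differentially expressed gene (DEG) where its log2 fold change was 1 or more in size and its false discovery rate (FDR) in limma was under 0.05, and "rose" and "fell" are used of DEGs. Values of single libraries stand in the order 10, 11 and 12 at 48 h and 1, 2 and 3 at 0 h. Between 19497776 and 26661418 reads lay on genes in the 48 h libraries, against 20795796 to 25070006 in the 0 h libraries. Pearson's r of log2(FPKM + 1) across genes was 0.974 to 0.977 among the 48 h libraries and 0.954 to 0.971 among the 0 h libraries, against 0.883 to 0.922 between the groups; genes are not independent replicates. The median SD across libraries was 0.176 at 48 h and 0.258 at 0 h on the log2 scale. The 0 h libraries 1 and 2 stood further apart from their group than the third, with 1303 and 1148 genes at least 1 log2 unit from the mean of the other libraries, against 674 for library 3 and 509 to 622 for the 48 h libraries. The small subunit genes of Rubisco, which mark the photosynthetic cells of a leaf, were high in both groups: RBCS4 had 14097, 9499 and 10058 FPKM at 48 h, against 29695, 12595 and 17663 FPKM at 0 h, while the 3 fruit markers listed had 0 FPKM in all 6 libraries. In whole leaves, fewer cells of a type and less RNA per cell cannot be told apart.

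In the leaves of the GSs, 2333 of 20090 genes tested (11.6%) were DEGs at 48 h, with 1430 higher (7.12%) and 903 lower (4.49%). The counts given below for each gene list are to be read against these shares. The rises were also the larger changes. The median log2 fold change was 1.71 among the DEGs that rose and -1.31 among those that fell, 196 genes rose by at least 3 and 20 fell by at least 3, and the median over all genes tested was -0.02. In 2280 of the 2333 DEGs, the libraries of the 2 groups did not overlap, which was also true of 42.0% of all genes tested. Where groups are said below to be apart, this is therefore the usual state of a DEG and not further support. The 5 largest rises among the genes with a symbol were those of TAS14, LE25, Hsc70.1, SRG2 (log2 fold change 5.53) and ERF-H9, and the 5 largest falls were those of ARGOS, Rcr3, Q`b, PR-5 and ER1, all among genes whose groups did not overlap and whose higher mean was at least 10 FPKM. Among the genes that the reference table gives only a number, LOC101250584 rose by 7.71 and LOC100750252 by 7.2, while LOC543878 fell by 5.22 and LOC101250247 fell by 4.92; no role is given for these here.

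**Figure D1:**
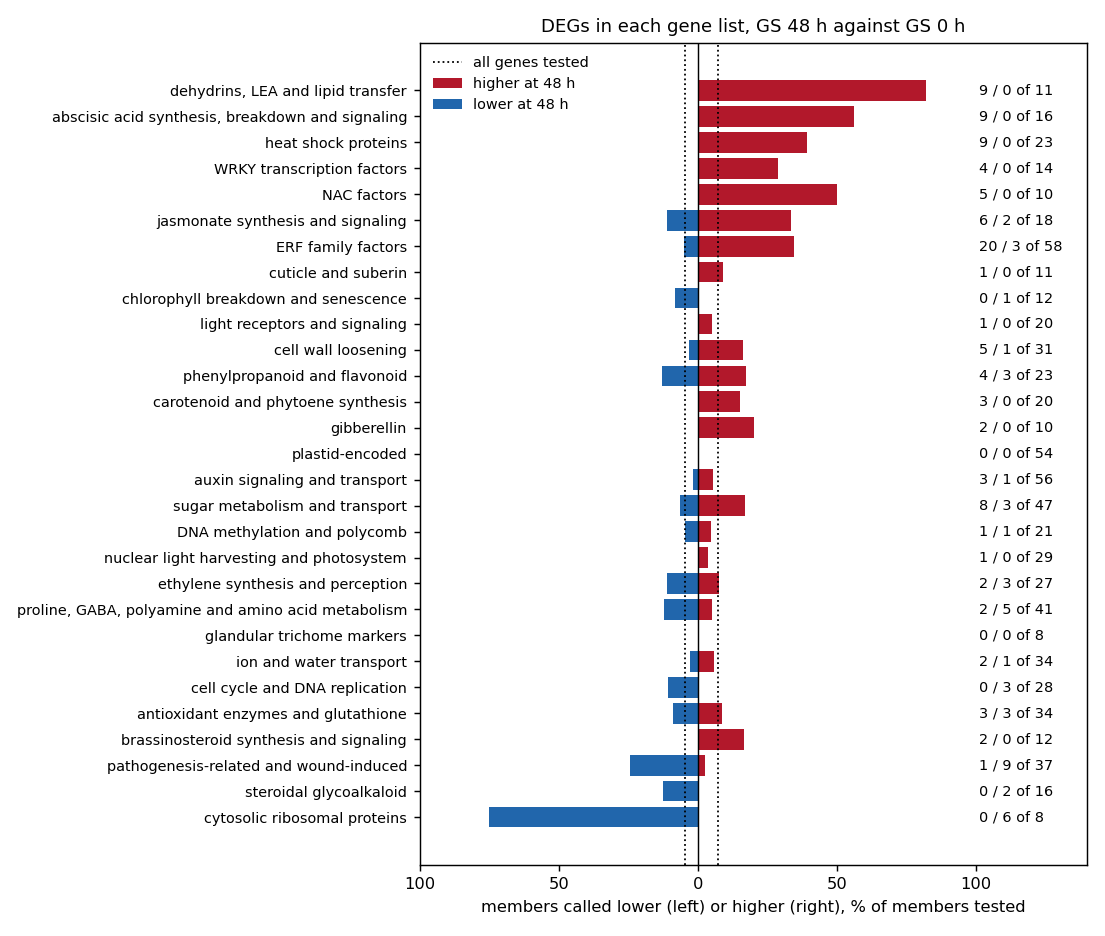
DEGs in GS leaves at 48 h against 0 h in each gene list with 8 or more members tested, other than the genes the study names. The horizontal axis gives the percentage of members tested that were called higher (red, right) or lower (blue, left), dotted lines mark the 7.12% and 4.49% called among all genes tested, and the numbers at the right give members higher / lower of members tested; lists run from the highest median log2 fold change (top) to the lowest. Dehydrins with LEA and lipid transfer proteins stand at the top with 9 higher of 11, and the cytosolic ribosomal proteins at the bottom with 6 lower of 8.

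The genes for dehydrins, LEA proteins and lipid transfer proteins changed most as a group. Of 11 tested, 9 rose and 0 fell, with a median log2 fold change of 3.70. TAS14, a dehydrin of tomato induced by salt and abscisic acid, had 659.6, 2303 and 359.6 FPKM at 48 h, against 0.998, 2.43 and 4.39 FPKM at 0 h. All 48 h libraries lay far above all 0 h libraries, as in 10 of the 11 members and in 21.6% of all genes tested, but they also differed among themselves, with library 11 highest, and the log2 fold change was 7.94 ± 1.1 (SE; limma, FDR 8.44e-06). LE25, another LEA gene, showed the same uneven rise, with 315, 1382 and 444 FPKM at 48 h, against 0.572, 8.54 and 1.52 FPKM at 0 h. LEA14 was more even, at 608, 522 and 809.7 FPKM at 48 h, against 31.9, 40.3 and 34.7 FPKM at 0 h. The dehydrin gene DHN had 355, 917 and 409 FPKM at 48 h, against 56.3, 119.5 and 97.6 FPKM at 0 h. In each of these genes the groups were apart. ER5, an ethylene-responsive LEA-like gene, rose by 5.03 ± 1.2 (SE) but was not called by voom on the recovered reads, and COR413IM1, a cold-regulated membrane protein gene, by 1.23 ± 0.33 (SE).

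Lipid transfer proteins carry lipids to the cuticle and cell wall, and 3 of their genes rose. LE16 had 2081, 2139 and 1942 FPKM at 48 h, against 32.9, 66.9 and 139 FPKM at 0 h. The 48 h libraries were nearly level while the 0 h libraries were not, and the log2 fold change was 4.9 ± 0.56 (SE, FDR 6.23e-07 in limma). The gene ltpg1 was at a high level in both groups, with 5709, 7093 and 5973 FPKM at 48 h, against 579.6, 609.6 and 698 FPKM at 0 h. TSW12, a salt-induced lipid transfer protein gene, had 336, 485 and 153 FPKM at 48 h, against 14.4, 21.7 and 31.9 FPKM at 0 h. No 48 h library of the 3 genes came down to the level of a 0 h library. The summed FPKM of the 11 members was 10361, 15153 and 10503 at 48 h, against 849, 981 and 1119 at 0 h. Without any single library of the 6, 9 or 10 of the 11 were DEGs.

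Abscisic acid genes rose on the side of synthesis, of breakdown and of signaling. Of 16 tested, 9 rose and 0 fell (median 1.55), and 9 or 10 did so whichever library was left out. NCED1, which cleaves carotenoids in the step that limits abscisic acid synthesis, had 209, 85.2 and 32.2 FPKM at 48 h, against 6.88, 4.24 and 6.51 FPKM at 0 h. The 48 h libraries differed by several-fold but all lay above the 0 h libraries, and the log2 fold change was 3.64 ± 0.63 (SE; FDR 0.000127). ZEP, which makes a precursor of abscisic acid among the xanthophylls, had 154, 155 and 207 FPKM at 48 h, against 56.7, 52 and 72.4 FPKM at 0 h. CYP707A2, an abscisic acid 8'-hydroxylase that starts the breakdown of the hormone, had 67, 47 and 114 FPKM at 48 h, against 1.48, 0.633 and 1.6 FPKM at 0 h, and its log2 fold change of 5.04 ± 0.91 (SE) was the largest of the list. CYP707A1 of the same family rose by 1.6.

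The protein phosphatases that hold abscisic acid signaling in check rose as well. PP2C-1 had 420.2, 445 and 442 FPKM at 48 h, against 76.9, 129 and 164 FPKM at 0 h. PP2C-2 had 386, 341 and 139 FPKM at 48 h, against 16.5, 68.7 and 49.2 FPKM at 0 h, and ABI2, a phosphatase of the same kind, had 62, 79.6 and 73.7 FPKM at 48 h, against 8.1, 21.1 and 17.1 FPKM at 0 h. The groups were apart in all 3. Of the small proteins named for abscisic acid, stress and ripening, Asr4 had 832, 781 and 1320.1 FPKM at 48 h, against 119, 117 and 157 FPKM at 0 h, and ASR1 rose by 2.08 ± 0.46 (SE). The kinase gene SRK2C (log2 fold change 0.73) and the transcription factor gene AREB1 (0.87) were not DEGs.

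**Figure D2:**
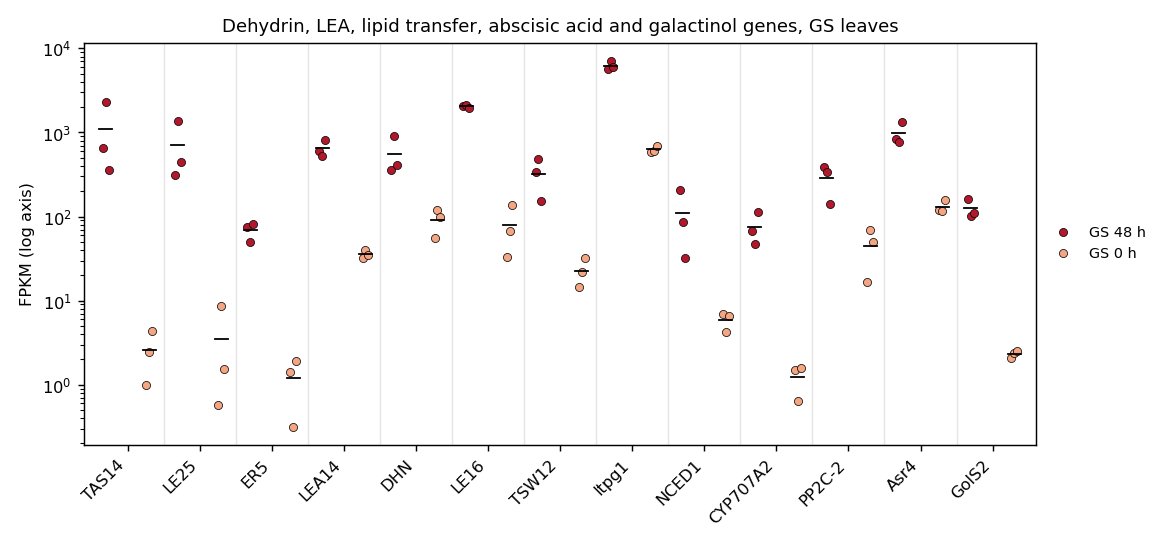
FPKM (log axis) of genes that rose in GS leaves, for the dehydrin, LEA, lipid transfer, abscisic acid and galactinol synthase genes. Points are libraries (GS 48 h dark red, left; GS 0 h light orange, right; 3 each) and lines are group means. In every gene shown the 3 libraries at 48 h lie above the 3 at 0 h, from 359.6 to 2303 FPKM against 0.998 to 4.39 FPKM for TAS14. The genes were chosen among DEGs, which nearly all have such groups, and 21.6% of all genes tested showed the same.

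Rises among chaperone genes were mostly from low levels. Of 23 heat shock protein and factor genes tested, 9 rose and 0 fell (median 1.18), with 6 to 11 rising as single libraries were left out. Hsc70.1, a cytosolic Hsp70 chaperone, had 196, 221 and 322 FPKM at 48 h, against 3.91, 4.78 and 1.94 FPKM at 0 h. Its log2 fold change was 5.79 ± 0.89 (SE; FDR 2.97e-05). The related hsc70.3 had 16.6, 15.8 and 40 FPKM at 48 h, against 0.42, 1.11 and 0.67 FPKM at 0 h. HSP17.8, a small heat shock protein gene, had 40.2, 24.5 and 83.8 FPKM at 48 h, against 7.17, 13 and 7.69 FPKM at 0 h, and HSTF24, a heat shock transcription factor gene, rose by 2.0 ± 0.40 (SE). Library 12 was the highest of the 48 h libraries in each of these genes. The call of HSP17.4 (4.93, 2.9 and 11 FPKM at 48 h, against 0, 0.186 and 0 FPKM at 0 h) was lost without 48 h library 12 (adjusted p 0.0738), and that of HSP90 (log2 fold change 3.02) was lost without 0 h library 1, 0 h library 2, 0 h library 3 or 48 h library 12 (adjusted p up to 0.105).

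Among the genes of sugar metabolism, a galactinol synthase and a sucrose synthase rose most. Of 47 genes tested, 8 rose and 3 fell (median 0.04). GolS2, a galactinol synthase that makes the donor for raffinose sugars, had 162, 102 and 111 FPKM at 48 h, against 2.1, 2.38 and 2.54 FPKM at 0 h. Each group was even, the groups were far apart, and the log2 fold change was 5.21 ± 0.60 (SE; FDR 7.75e-07). SUS4, a sucrose synthase, had 76.5, 104 and 90.1 FPKM at 48 h, against 15.7, 6.66 and 12.2 FPKM at 0 h. BAM1, a beta-amylase of starch breakdown, had 1664, 1404 and 1078 FPKM at 48 h, against 243, 432 and 334 FPKM at 0 h. The sucrose synthase sus3 rose by 1.99, TPS1, which makes trehalose phosphate, by 1.87, and the small subunit of ADP-glucose pyrophosphorylase AGP-S2 by 1.08; the call of TPS1 was lost without 0 h library 1, 0 h library 3, 48 h library 11 or 48 h library 12 (adjusted p up to 0.211), and that of AGP-S2 was lost without 48 h library 12, where the log2 fold change came under 1. IPS, the inositol phosphate synthase, had 5529.6, 3966 and 6062 FPKM at 48 h, against 1644, 380.3 and 1072 FPKM at 0 h; its call was lost without 0 h library 2, 48 h library 10 or 48 h library 12 (adjusted p up to 0.117). The sucrose transporter LeSUT1 of the phloem had 159, 140.2 and 171 FPKM at 48 h, against 202, 159 and 207 FPKM at 0 h, which overlapped (log2 fold change -0.26, not a DEG). The falls were less stable: FRK2, a fructokinase, fell by 1.03 and its call was lost without 0 h library 3, 48 h library 10 or 48 h library 12, where the log2 fold change came under 1, TMT1, a tonoplast sugar transporter, fell by 1.10 and was lost without 0 h library 1 or 48 h library 12, where the log2 fold change came under 1, and SFP5, a sugar transporter, fell by 1.5 and was lost without 0 h library 1, 0 h library 3 or 48 h library 12 (adjusted p up to 0.114). Without 48 h library 12, 5 genes of this list rose and 0 fell, without 0 h library 1, 7 rose and 1 fell, and without 48 h library 11, 7 rose and 5 fell.

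In the metabolism of amino acids, 2 of 41 listed genes tested rose (4.88%) and 5 fell (12.2%), with a median of -0.06. Among all genes tested, 7.12% rose and 4.49% fell. A further 2 genes that the study names were DEGs outside the list. PDH, the proline dehydrogenase that breaks proline down, had 1.0, 1.01 and 5.96 FPKM at 48 h, against 16.1, 16.6 and 11.8 FPKM at 0 h, with 48 h library 12 apart from the other 48 h libraries but still below all at 0 h. PRO2, of proline synthesis, had 33.5, 31 and 27.4 FPKM at 48 h, against 27.8, 24 and 24.2 FPKM at 0 h, and was not a DEG (log2 fold change 0.26). Outside the list, the glutamate decarboxylase gene LOC544313, of the step that makes GABA, had 45.8, 77.2 and 52.6 FPKM at 48 h, against 4.52, 5.33 and 6.73 FPKM at 0 h (log2 fold change 3.17 ± 0.39, FDR 1.48e-06). GABA-TP3, a transaminase that breaks GABA down, fell by 1.13, and its call was lost without 0 h library 1, where the log2 fold change came under 1. Also outside the list, the NADH glutamate synthase gene LOC101254281 fell by 1.40, and its call was lost without 48 h library 12 (adjusted p 0.0525). In the list, gts1 fell by 1.64 and was lost without 0 h library 1, 48 h library 11 or 48 h library 12 (adjusted p up to 0.0876). AS1, an asparagine synthetase, was uneven at 48 h, with 3.24, 55.7 and 18.7 FPKM at 48 h, against 0.484, 1.95 and 0.958 FPKM at 0 h, and its call was lost without 0 h library 1, 0 h library 2, 0 h library 3, 48 h library 11 or 48 h library 12 (adjusted p up to 0.220). SAM3, an S-adenosylmethionine synthase, rose by 1.11 and was lost without 0 h library 3 (adjusted p 0.0715). OTC, of arginine synthesis, fell by 1.15 and was lost without 0 h library 2, where the log2 fold change came under 1. Without 0 h library 1, the list held 4 rises and 2 falls, without 0 h library 2, 1 and 3, without 0 h library 3, 0 and 6, and without 48 h library 11 or 48 h library 12, 1 and 3.

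Transcription factors of the ERF family, which act in the response to ethylene, drought and cold, held many of the rises. Of 58 tested, 20 rose and 3 fell (median 0.52), and 18 to 20 rose as single libraries were left out. ERF-H9 had 56.9, 55.6 and 37.3 FPKM at 48 h, against 0.135, 0.168 and 0.647 FPKM at 0 h. ERF5 had 148, 118 and 75.7 FPKM at 48 h, against 6.15, 4.76 and 7.71 FPKM at 0 h, and ERF36 had 251, 291 and 281 FPKM at 48 h, against 40.7, 26.1 and 38.6 FPKM at 0 h. The groups were apart in all 3. ERF-D3 rose by 4.02 ± 0.88 (SE), ERF-B4 by 3.19, ERF-B5 by 3.13 and the dehydration-responsive DREB3 by 1.55, a call lost without 0 h library 1 or 48 h library 12 (adjusted p up to 0.0546). CBF1, known for cold tolerance, had 66.2, 69.2 and 138 FPKM at 48 h, against 9.18, 1.09 and 10 FPKM at 0 h, and was lost without 0 h library 2 (adjusted p 0.0503). ERF6 fell, with 20.9, 15.2 and 12.7 FPKM at 48 h, against 87, 82.4 and 153 FPKM at 0 h (log2 fold change -2.62 ± 0.31), and ERF4 fell by 1.60. EREB fell by 1.73, and its call was lost without 0 h library 2, 0 h library 3, 48 h library 10 or 48 h library 12 (adjusted p up to 0.199).

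Of 14 WRKY factors, which act in stress and defence, 4 rose and 0 fell (median 0.96). WRKY31 had 132, 163 and 209 FPKM at 48 h, against 17.5, 43.6 and 18.5 FPKM at 0 h, and WRKYIId-1 had 415, 418 and 326 FPKM at 48 h, against 68.1, 129 and 108 FPKM at 0 h. WRKY41 had 398, 376 and 448 FPKM at 48 h, against 69.3, 70.6 and 75.8 FPKM at 0 h, and was lost without 48 h library 12 (adjusted p 0.0524). WRKY40 rose by 2.17 and was lost without 0 h library 1 or 48 h library 12 (adjusted p up to 0.0558), so that 2 of the 14 rose without 48 h library 12. The WRKY genes LOC101247012 and LOC543855, which the study names, are not among the 14. LOC101247012 had 69.6, 95.9 and 106 FPKM at 48 h, against 18.1, 17.6 and 17.3 FPKM at 0 h (log2 fold change 2.27 ± 0.56). LOC543855 rose by 2.25, but its call was lost without each single library in turn (adjusted p up to 0.142). LOC101250636, the bZIP gene PosF21, had 85.8, 86.4 and 103 FPKM at 48 h, against 17, 16.2 and 18.2 FPKM at 0 h, with even libraries in both groups. Of 10 NAC factors, 5 rose and 0 fell (median 0.67). NACMTF3, a membrane-tethered NAC factor, had 102, 74.3 and 106 FPKM at 48 h, against 9.07, 6.89 and 8.05 FPKM at 0 h, and NACMTF2 rose by 2.36. NAC2 rose by 1.2 and was lost without 0 h library 3 or 48 h library 12 (adjusted p up to 0.0527); without 0 h library 3, 3 of the 10 rose.

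The 20 genes that the study names by identifier were chosen by it with these libraries in view, so their count is not independent evidence of a direction: 11 of them rose and 1 fell, with a median of 2.05, while 10 rose and 0 fell without 48 h library 12.

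Hormone pathways other than abscisic acid differed in how they changed. For jasmonate, 6 of 18 genes tested rose and 2 fell (median 0.55). The lipoxygenase loxD, which starts jasmonate synthesis, had 56.5, 78.5 and 80.1 FPKM at 48 h, against 1.57, 1.87 and 2.93 FPKM at 0 h. MYC2, the factor that jasmonate sets free, had 97.9, 113 and 151 FPKM at 48 h, against 19.9, 32.8 and 23.7 FPKM at 0 h, and JAZ2, a repressor that binds MYC2, had 18.9, 86.2 and 55.3 FPKM at 48 h, against 5.23, 4.29 and 6.19 FPKM at 0 h. The groups were apart in these 3 genes. JA2L, a NAC factor of guard cells, rose by 2.64. JAR1, which makes the active conjugate of jasmonate, fell by 1.27, and AOS2, an allene oxide synthase, fell by 1.44 and was lost without 0 h library 1, 0 h library 2, 48 h library 10 or 48 h library 12 (adjusted p up to 0.189). With 0 h library 2 or 48 h library 12 left out, the list held 4 rises and 1 fall, and with 0 h library 1 or 48 h library 10 left out, 6 rises and 1 fall.

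For ethylene, 2 of 27 genes tested rose and 3 fell (median -0.06). ACS1A, an ACC synthase that makes the precursor of ethylene, had 32.4, 28 and 26.8 FPKM at 48 h, against 0.767, 0.975 and 0.87 FPKM at 0 h, with even libraries in both groups (log2 fold change 4.0 ± 0.65, FDR 6.03e-05). ACS1B rose by 1.7. ETR4, an ethylene receptor, had 1.71, 2.87 and 1.88 FPKM at 48 h, against 15.2, 20.6 and 13.2 FPKM at 0 h, and EBF1, an F-box protein that has ethylene's transcription factors degraded, had 6.82, 6.99 and 8.91 FPKM at 48 h, against 28.1, 19.4 and 27.9 FPKM at 0 h. EFE, an ethylene-forming ACC oxidase, had 1.09, 1.49 and 0.692 FPKM at 48 h, against 4.8, 43.2 and 8.57 FPKM at 0 h, where 0 h library 2 stood above the others. Within synthesis, ACS1A and ACS1B were thus higher and EFE lower, and the receptor gene ETR4 and the F-box gene EBF1 were lower. The rises were 7.41% and the falls 11.1% of the list, against 7.12% and 4.49% of all genes tested.

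For gibberellin, 2 of 10 genes rose and 0 fell (median 0.11): GA2ox3, an oxidase that inactivates gibberellin, with 8.01, 10.8 and 9.81 FPKM at 48 h, against 0.158, 0.425 and 0.252 FPKM at 0 h, and the receptor gene GID1b-1, with 123, 88.3 and 95.4 FPKM at 48 h, against 10.9, 12.7 and 19.9 FPKM at 0 h. Without 48 h library 11, 4 of the 10 rose. For auxin, 3 of 56 genes rose and 1 fell (median 0.06), under the shares over all genes tested. ARF17 rose by 1.29, and the calls of IAA15, IAA21 and GH3-8 depended on single libraries: IAA15 rose by 1.72 and was lost without 0 h library 1, 0 h library 2, 0 h library 3, 48 h library 11 or 48 h library 12 (adjusted p up to 0.309), IAA21 rose by 1.26 and was lost without 0 h library 1, 0 h library 2, 48 h library 10 or 48 h library 11 (adjusted p up to 0.159), and GH3-8 fell by 1.30 and was lost without 0 h library 1 or 48 h library 11 (adjusted p up to 0.177). As single libraries were left out, 1 to 3 auxin genes rose and 0 to 5 fell, the 5 falls without 0 h library 2. For brassinosteroid, 2 of 12 genes rose and 0 fell (median -0.36), both at the threshold: CURL3, the receptor, rose by 1.05 and was lost without 0 h library 2 or 48 h library 12, where the log2 fold change came under 1, and CYP85A1, of synthesis, rose by 1.02 and was lost without each single library in turn (adjusted p up to 0.143). Without any single library, 0 or 1 brassinosteroid genes rose.

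Of 31 listed genes of cell wall loosening, 5 rose and 1 fell (median 0.15), and 3 further genes of the kind, which the study names, rose outside the list. Xyloglucan endotransglucosylase-hydrolases (XTHs) cut and rejoin the xyloglucan that ties cellulose together. The genes outside the list, LOC101258632, LOC101258345 and LOC101258926, annotated as XTH23, lie near one another on a chromosome in the reference table, and reads that near copies share may have been split between them or lost, since the counting of such reads is not given in the sources used here. LOC101258632 had 21.7, 20.6 and 34.3 FPKM at 48 h, against 1.77, 0.27 and 0.297 FPKM at 0 h. LOC101258345 had 12.9, 8.95 and 26.5 FPKM at 48 h, against 0.822, 0.16 and 0.0514 FPKM at 0 h, and LOC101258926 had 13.8, 10.5 and 22.6 FPKM at 48 h, against 0.747, 0.232 and 0.0992 FPKM at 0 h. All 3 lay well above 0 h in every 48 h library. In the list, XTH3 had 14.2, 10.9 and 32.3 FPKM at 48 h, against 0.934, 0.542 and 0.546 FPKM at 0 h. The related tXET-B1 had 50.9, 48.9 and 164 FPKM at 48 h, against 8.7, 2.3 and 7.98 FPKM at 0 h. Library 12 was the highest at 48 h in all of these genes. The call of tXET-B2 (log2 fold change 4.21) was lost without 0 h library 2 or 48 h library 12 (adjusted p up to 0.0578). EXP5, an expansin, rose by 1.21 and was lost without 0 h library 2, 0 h library 3, 48 h library 10 or 48 h library 11 (adjusted p up to 0.192), EXLA1, expansin-like, rose by 1.54 and was lost without 0 h library 1, 0 h library 2, 0 h library 3 or 48 h library 12 (adjusted p up to 0.141), and XET2 fell by 1.91. Without 0 h library 2, 2 of the list rose and 1 fell, without 0 h library 3 or 48 h library 12, 3 rose and 1 fell, and without 48 h library 10, 4 rose and 2 fell.

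Ion and water transport genes mostly did not pass the test: 2 of 34 rose and 1 fell (median -0.22). These were 5.88% and 2.94%, under the 7.12% and 4.49% of all genes tested. NHX1, which moves Na+ or K+ into the vacuole in exchange for protons, had 11.6, 9.5 and 10.4 FPKM at 48 h, against 2.49, 2.75 and 4.19 FPKM at 0 h (log2 fold change 1.49 ± 0.19, FDR 2.64e-06). Its relative nhx3 rose by 1.13 and was lost without 0 h library 1, 0 h library 3, 48 h library 11 or 48 h library 12 (adjusted p up to 0.136). SOS1, the Na+/H+ antiporter of the plasma membrane, had 11.8, 13.8 and 13.5 FPKM at 48 h, against 14.6, 13.4 and 14.1 FPKM at 0 h, and the groups overlapped (log2 fold change -0.10). HKT1;2, a Na+ transporter, had 1.38, 0.764 and 1.34 FPKM at 48 h, against 1.41, 1.36 and 1.61 FPKM at 0 h (log2 fold change -0.20, not a DEG). TIP2-2, an aquaporin of the vacuolar membrane, fell, with 47.2, 61.8 and 50 FPKM at 48 h, against 289, 279 and 359 FPKM at 0 h, even in both groups (log2 fold change -2.52 ± 0.39, FDR 3.25e-05). Without 0 h library 2, 2 of the list rose and 3 fell, without 0 h library 1, 0 h library 3 or 48 h library 12, 1 rose and 1 fell, and without 48 h library 11, 1 rose and 2 fell.

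Of 34 antioxidant and redox genes, 3 rose and 3 fell (8.82% each, against 7.12% and 4.49% of all genes tested; median -0.34). RBOH1, an NADPH oxidase that makes superoxide outside the cell, had 11.3, 15.1 and 18.3 FPKM at 48 h, against 3.85, 3.14 and 3.53 FPKM at 0 h, and GPXle-1, a glutathione peroxidase, had 263, 543 and 294 FPKM at 48 h, against 92.7, 172 and 104 FPKM at 0 h. MIOX, the myo-inositol oxygenase, had 0.0897, 0.099 and 0.43 FPKM at 48 h, against 5.11, 2.29 and 2.39 FPKM at 0 h. In these 3 genes the groups were apart. Wfi1, another NADPH oxidase, rose by 2.17 and was lost without 0 h library 1, 0 h library 3, 48 h library 11 or 48 h library 12 (adjusted p up to 0.0894); FESOD, the iron superoxide dismutase, fell by 1.04 and was lost without 0 h library 1, 0 h library 2, 48 h library 10 or 48 h library 11 (adjusted p up to 0.152), and GPXle-2 fell by 1.04 and was lost without 0 h library 1, 0 h library 2, 48 h library 10 or 48 h library 12, where the log2 fold change came under 1. Without 0 h library 1, 2 rose and 1 fell, and without 0 h library 2 or 48 h library 10, 3 rose and 1 fell.

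**Figure D3:**
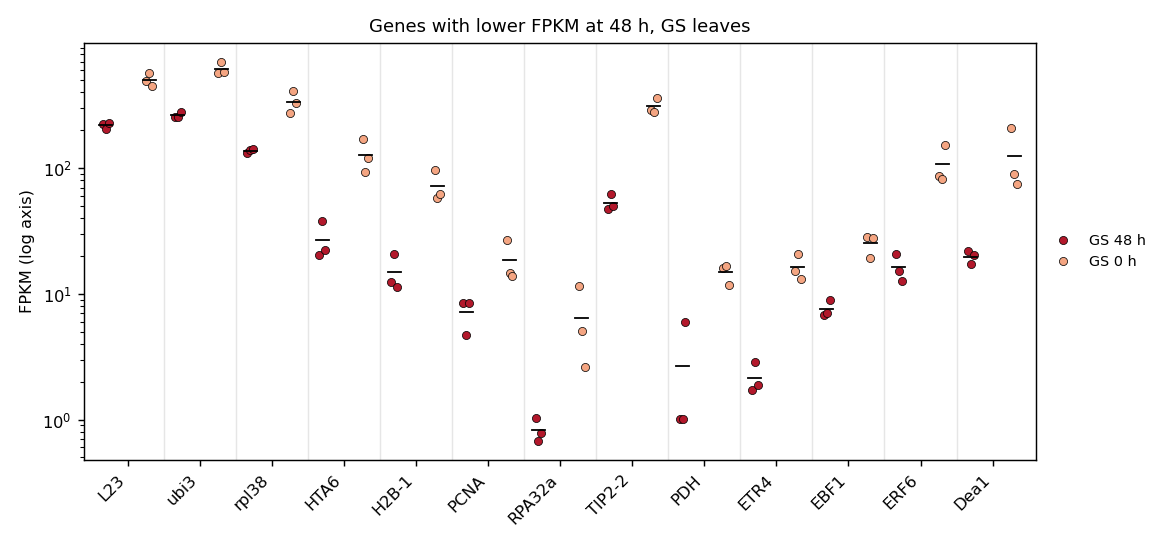
FPKM (log axis) of genes that fell in GS leaves: ribosomal protein, histone, replication, aquaporin, proline dehydrogenase, ethylene and other genes. Points are libraries (GS 48 h dark red, left; GS 0 h light orange, right; 3 each) and lines are group means. The ribosomal protein genes fell by about the same step with little spread, as L23 with 204 to 229 FPKM at 48 h and 451 to 571 FPKM at 0 h.

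Falls were frequent among ribosomal protein and histone genes and fewer among those of the cell cycle. Of 8 cytosolic ribosomal protein genes that carry a symbol, 0 rose and 6 fell (median -1.10), and in all 8 every 48 h library lay below every 0 h library, as in 20.3% of all genes tested. L23 had 223, 204 and 229 FPKM at 48 h, against 492, 571 and 451 FPKM at 0 h, and ubi3, which encodes ubiquitin fused to a ribosomal protein, had 256, 256 and 276 FPKM at 48 h, against 569, 701 and 584 FPKM at 0 h. The spread within each group was small, and modest falls passed the test: the log2 fold change of L23 was -1.20 ± 0.14 (SE, FDR 9.86e-07 in limma). The fall of rpl38 was 1.27 on the log2 scale, and RPL8 and RPS25 fell by 1.04 and 1.03. RPL3 (log2 fold change -0.64) and RPL37 (-0.57) were not DEGs. The summed FPKM of the 8 genes was 1493, 1438 and 1481 at 48 h, against 2647, 3342 and 2818 at 0 h. As single libraries were left out, 4 to 6 of the 8 fell.

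Of 5 histone genes, 3 fell and 0 rose (median -1.27), 3 or 4 whichever library was left out. HTA6, a histone H2A, had 20.3, 37.7 and 22.3 FPKM at 48 h, against 170.1, 93.5 and 119.8 FPKM at 0 h, and H2B-1, a histone H2B, had 12.4, 20.8 and 11.3 FPKM at 48 h, against 96.4, 58.1 and 62 FPKM at 0 h. H2B-2 fell by 1.27. Of 28 genes of the cell cycle and DNA replication, 0 rose, 3 fell (10.7%, against 4.49% of all genes tested) and 25 were not called (median -0.25): RPA32a, of the single-strand binding complex, had 1.03, 0.675 and 0.785 FPKM at 48 h, against 11.6, 5.02 and 2.64 FPKM at 0 h, P18 fell by 1.61, and PCNA, the sliding clamp of DNA polymerase, had 8.39, 4.66 and 8.4 FPKM at 48 h, against 26.7, 14.7 and 13.9 FPKM at 0 h. The call of PCNA was lost without 0 h library 1 or 48 h library 11, where the log2 fold change came under 1.

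ARGOS, a regulator of organ size known from Arabidopsis, had the largest fall of the named genes, with 0.0858, 0.0947 and 0 FPKM at 48 h, against 21.2, 10.2 and 22.9 FPKM at 0 h. These values stand for 4 reads in all at 48 h, against 1125 reads at 0 h, and the log2 fold change was -4.09 ± 0.44 (SE; FDR 2.72e-07). Dea1 had 21.7, 17.2 and 20.2 FPKM at 48 h, against 208, 90.4 and 74.2 FPKM at 0 h, and MSRA, a methionine sulfoxide reductase, had 7.34, 8.86 and 5.8 FPKM at 48 h, against 60.5, 42.4 and 32.2 FPKM at 0 h. In these 3 genes the groups were apart and the call did not depend on a single library. GLB1, a haemoglobin gene, fell by 2.54 and was lost without 0 h library 1 (adjusted p 0.0638).

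Among genes of pathogen defence and wounding, most DEGs were lower. Of 37 tested, 1 rose and 9 fell (median -0.41), but their levels were uneven within both groups. Rcr3, a secreted cysteine protease, had 1.37, 1.55 and 1.12 FPKM at 48 h, against 12.5, 62.2 and 16.8 FPKM at 0 h, and was lost without 0 h library 2 (adjusted p 0.0909). NP24-I, an osmotin-like protein gene, had 8.3, 43.7 and 21.2 FPKM at 48 h, against 145, 242 and 66.1 FPKM at 0 h, and was lost without 0 h library 2 or 48 h library 10 (adjusted p up to 0.0803). PR-1a1, a pathogenesis-related protein gene, had 0.291, 5.08 and 2.85 FPKM at 48 h, against 18.4, 33.1 and 5.63 FPKM at 0 h, and was lost without 0 h library 2 or 48 h library 10 (adjusted p up to 0.0999). TPM-1 fell by 2.77 and was lost without 48 h library 10 (adjusted p 0.0660), Q`b, a glucanase, fell by 3.30 and was lost without 0 h library 2 (adjusted p 0.0847), and ER1, a proteinase inhibitor outside the list, fell by 2.95 and was lost without 0 h library 2 or 48 h library 10 (adjusted p up to 0.193). PR-5 fell by 3.17 and was lost without 0 h library 2, 0 h library 3, 48 h library 10, 48 h library 11 or 48 h library 12 (adjusted p up to 0.173). CHI9, a chitinase, fell by 2.17, with 57.2, 405 and 228 FPKM at 48 h, against 1462, 926 and 363 FPKM at 0 h, so that 1 library of 48 h exceeded 1 of 0 h, and was lost without 0 h library 1, 0 h library 2 or 48 h library 10 (adjusted p up to 0.184). The 0 h library 2 was the highest of its group in 7 of these 8 genes, and 48 h library 10 the lowest of its group in 5. Without 0 h library 2, 3 genes of the list fell, and without 48 h library 10, 4 fell. Pic1 rose by 1.42.

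Phenylpropanoid genes rose and fell in different branches, with 4 of 23 higher and 3 lower (median 0.13). THT1-4, a tyramine hydroxycinnamoyl transferase that makes phenolic amides for the cell wall, had 278, 282 and 298 FPKM at 48 h, against 13.6, 25.6 and 8.31 FPKM at 0 h, and THT7-8 had 47.9, 52.5 and 63.4 FPKM at 48 h, against 12, 9.02 and 11.7 FPKM at 0 h. CCR1, a cinnamoyl-CoA reductase of lignin synthesis, had 64, 58.1 and 63.6 FPKM at 48 h, against 18.8, 12.1 and 11.2 FPKM at 0 h. The groups were apart in these 3 genes. F3'H, a flavonoid hydroxylase, fell by 1.60. AnthOMT, an anthocyanin methyltransferase, fell by 2.44 and was lost without 0 h library 1, 0 h library 3, 48 h library 11 or 48 h library 12 (adjusted p up to 0.147), and F3'5'H, another flavonoid hydroxylase, fell by 1.45 and was lost without 0 h library 1, 0 h library 3, 48 h library 11 or 48 h library 12 (adjusted p up to 0.225). Both were low in 48 h libraries 11 and 12 but not in library 10, and low in 0 h library 2. The falls in the list numbered 1 without 0 h library 1, 0 h library 3, 48 h library 11 or 48 h library 12, and 5 without 48 h library 10; the rises numbered 6 without 0 h library 1.

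Photosynthetic genes showed no joint change against 0 h. Of 29 nuclear genes of light harvesting, photosystems and carbon fixation, 1 rose and 0 fell (median -0.04). As single libraries were left out, this median ranged from -0.40 without 0 h library 2 to 0.26 without 0 h library 1. CAB1B, a chlorophyll a/b binding protein, rose by 1.37, but its call was lost without 0 h library 2, 48 h library 10, 48 h library 11 or 48 h library 12 (adjusted p up to 0.234). The summed FPKM of the list was 80070.2, 60660.4 and 69299 at 48 h, against 117705, 49819 and 81233 at 0 h, and the groups overlapped, with 0 h library 1 highest and 0 h library 2 lowest. Of 54 plastid-encoded genes, 0 rose and 0 fell (median 0.09) by limma and by voom, with 2 higher and 2 lower at an unadjusted p under 0.05; with single libraries left out, 0 to 2 rose and 0 to 2 fell. Their summed FPKM was 939, 979 and 3771 at 48 h, against 1717, 958 and 1585 at 0 h, so 48 h library 12 stood apart. In rbcL, the large subunit of Rubisco, that library had 351 FPKM, and the 48 h values were 23.4, 28.1 and 351 FPKM, against 58.5, 58.2 and 32.6 FPKM at 0 h. Plastid transcripts largely lack long poly(A) tails, and whether the RNA was selected by poly(A) is not given in the sources used here; the part of this in the level of library 12 was not tested.

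Smaller lists each held few DEGs, where 7.12% of all genes tested were higher and 4.49% lower. DRM7, of DNA methylation, had 48.3, 59.8 and 47.9 FPKM at 48 h, against 4.3, 6.59 and 8.17 FPKM at 0 h, and was the 1 rise of 21 genes of DNA methylation and polycomb; CMT2 fell by 1.00 and was lost without 0 h library 1 or 48 h library 12, where the log2 fold change came under 1. LNK1, a clock gene, was the 1 rise of 20 light receptor and signaling genes, with 147, 176 and 217 FPKM at 48 h, against 42.5, 23.1 and 67.1 FPKM at 0 h. CrtR-b2, a carotene hydroxylase, had 13.5, 15.5 and 16.8 FPKM at 48 h, against 2.73, 2.81 and 3.28 FPKM at 0 h, and with ZEP and PSY2 made 3 rises of 20 carotenoid genes; PSY2 rose by 1.01 and was lost without 0 h library 2, 0 h library 3, 48 h library 10, 48 h library 11 or 48 h library 12 (adjusted p up to 0.237). In 16 glycoalkaloid and sterol genes, 0 rose and 2 fell: HMGS1 fell by 2.18 and was lost without 0 h library 1 (adjusted p 0.0722), and GAME1 fell by 2.32 and was lost without 0 h library 1, 48 h library 10 or 48 h library 11 (adjusted p up to 0.228). Both had their highest value in 0 h library 1. In 11 cuticle genes, SHINE3, a factor of cuticle formation, rose by 1.32 and was lost without 0 h library 2 or 48 h library 11 (adjusted p up to 0.0928). In 12 genes of chlorophyll breakdown and senescence, PAP1 fell by 1.80 and 0 rose. Of 16 markers of glandular trichomes, the hair cells that make acyl sugars and terpenes, 8 were expressed enough to be tested and 0 were DEGs by limma or by voom, with 1 lower at an unadjusted p under 0.05. The summed FPKM of the trichome markers was 22.7, 16.3 and 26 at 48 h, against 34.7, 27.9 and 13.3 at 0 h, which overlapped.

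Of 5 lists followed over time, the photosystem genes alone had a median nearer to 0 h at 48 h than at 24 h. This was not particular to them. Among the lists not followed here, the plastid-encoded genes (median -0.63 at 24 h and 0.09 at 48 h), the cell wall genes (-0.47 and 0.15) and the carotenoid genes (-0.47 and 0.12) were also nearer. Others, such as the ERF genes (0.34 and 0.52), were not. The comparisons of each time point with 0 h share the 0 h libraries, so their medians are given side by side only. For dehydrins, LEA and lipid transfer genes, the median log2 fold change against 0 h was 1.97, 1.63, 2.53, 3.70 and 3.78 after 6, 12, 24, 48 and 96 h of NaCl. For abscisic acid genes it was 0.67, 0.61, 1.18, 1.55 and 0.94 in the same order, so that 48 h held the highest of the 5. For cytosolic ribosomal proteins it was -0.48, -0.96, -0.46, -1.10 and -0.20, lowest at 48 h. For histones it was -1.45, -1.26, -1.07, -1.27 and -0.13. For nuclear photosystem genes it was -1.54, -0.76, -1.5, -0.04 and -0.46, so that the median at 48 h was the nearest to 0 h. The 48 h median of this list shifted with the 0 h library left out, as given above.

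**Figure D4:**
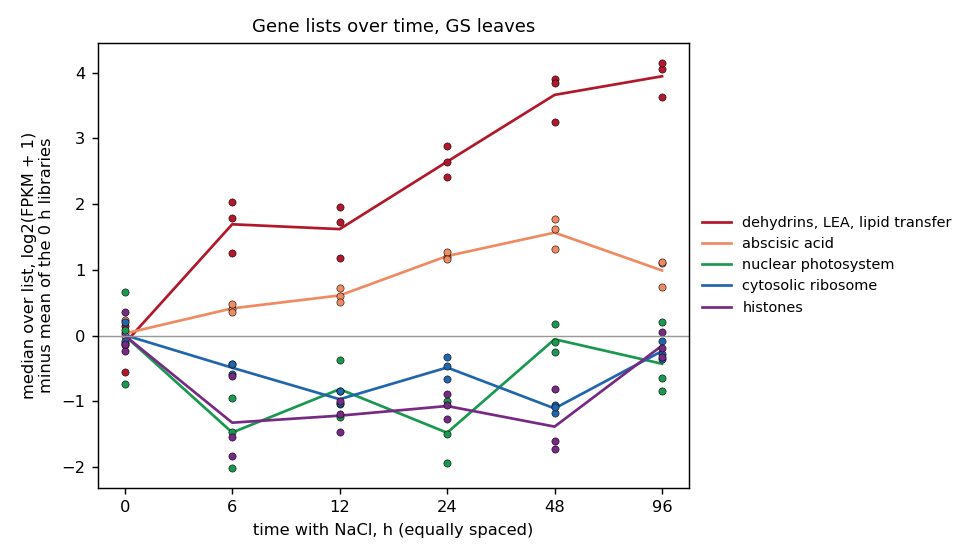
Median over each list of log2(FPKM + 1) minus the mean of the GS 0 h libraries, in GS leaves from 0 to 96 h of NaCl (times equally spaced). Points are libraries (3 per time), lines join the group means. The dehydrin list is highest at 48 and 96 h and the ribosomal list is lowest at 48 h. The photosystem list is nearer to its 0 h mean at 48 h than at 24 h, but its 0 h libraries were uneven.

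Tested against 24 h directly, 1343 genes (6.68%) were DEGs at 48 h, with 990 higher (4.93%) and 353 lower (1.76%). This direction depends on the scale between libraries: with library totals as the scale, 530 were higher and 972 lower, and with quantile normalization, 726 and 523. Of the 29 nuclear photosystem genes, 17 were higher at 48 h than at 24 h and 0 lower; with library totals as the scale 15 were higher and 1 lower, with quantile normalization 11 and 1, and without GS 24 h library 9, 10 were higher. Their summed FPKM of 80070.2, 60660.4 and 69299 at 48 h lay above the 48351, 34193 and 24353 of the libraries at 24 h. For the ribosomal proteins, the sum was 1493, 1438 and 1481 at 48 h, against 2201, 2478 and 1919 at 24 h, and again the groups did not overlap, but 0 of the 8 genes were DEGs by limma or by voom at 48 h against 24 h, with 7 lower at an unadjusted p under 0.05. With quantile normalization or library totals as the scale, 4 of the 8 were lower.

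The response of the GSs from 0 h to 48 h was set against that of the NGSs by testing the difference of the 2 changes, GSs minus NGSs. At this contrast, 1183 genes (5.89%) passed, 809 with a positive difference (4.03%) and 374 with a negative one (1.86%). For this contrast, higher and lower in the GSs give the sign of the difference, not levels or the size of either change. The split shifts with the scale, to 581 and 521 under quantile normalization, and the count rests in part on single libraries: it was 319 without NGS 48 h library 11, 592 without NGS 0 h library 3, 699 and 710 without GS 0 h libraries 2 and 3, and 707 without GS 48 h library 10. Of the 1183 genes, 234 were DEGs of the GSs and 829 DEGs of the NGSs, in which 4649 genes (23.1%) were DEGs in all, 1963 higher (9.77%) and 2686 lower (13.4%); these calls use the same libraries as the difference. The gap between the GSs and NGSs was larger at 0 h than at 48 h for 932 of the 1183 (78.8%), as for 61.6% of all genes tested. The libraries of the GSs and NGSs did not overlap at 48 h for 43.4% and at 0 h for 84.9% of the 1183, against 19.6% and 30.9% of all genes tested.

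Lipid transfer genes and the galactinol synthase gene GolS2 changed more in the GSs. The log2 fold change of LE16 was 4.9 in GS leaves but 0.90 in NGS leaves, where it had 2580.2, 989 and 1557 FPKM at 48 h, against 821, 998 and 739 FPKM at 0 h. The GSs and NGSs overlapped at 48 h, and the 0 h values of the NGSs lay above all those of the GSs; the difference of the changes was 4.0 ± 0.79 (SE; FDR 0.00438). GolS2 had 54.7, 11 and 46 FPKM at 48 h in the NGSs, against 6.5, 14.5 and 11 FPKM at 0 h, and a difference of 3.71, with an adjusted p of 0.0558 without NGS 48 h library 11. The list of sugar metabolism mostly went the other way: of its 47 genes, 1 had a positive difference and 7 a negative one (median -0.16). Without NGS 48 h library 11, these counts were 0 and 2. The other lipid transfer genes, ltpg1 and TSW12, differed by 2.68 and 2.94, and the call of TSW12 was lost without GS 48 h library 11, NGS 0 h library 2 or NGS 48 h library 11 (adjusted p up to 0.0762). Of the 11 dehydrin, LEA and lipid transfer genes, 3 differed, all higher in the GSs, and 2 or 3 as single libraries were left out. In the NGSs, 5 of the 11 rose (median 1.42). Their summed FPKM in the NGSs was 10772, 5426 and 9222 at 48 h, against 3400, 5264 and 4278 at 0 h. In the GSs it was 10361, 15153 and 10503 at 48 h, against 849, 981 and 1119 at 0 h. The sums of the GSs and NGSs thus overlapped at 48 h, while at 0 h those of the NGSs were all higher.

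Cell wall genes and transporters differed as well. EXP5 had 81.4, 47.7 and 32.6 FPKM at 48 h in the GSs, against 25.8, 17.6 and 21 FPKM at 0 h, and 28.2, 12.8 and 22.9 FPKM at 48 h in the NGSs, against 61.5, 162 and 152 FPKM at 0 h, with a difference of 3.65 ± 0.60 (SE; FDR 0.000872). The NGSs lay above the GSs at 0 h and below them at 48 h, without overlap at either time. XTH9 differed by 3.71 ± 0.66 (SE). Of 31 cell wall genes, 7 differed, all higher in the GSs (2 without NGS 48 h library 11), while in the NGSs 0 rose and 13 fell (median -1.01). Outside that list, LOC101258345 and LOC101258632 of XTH23 differed by 3.66 and 4.07, calls that were lost without NGS 48 h library 11, and for LOC101258632 also without NGS 0 h library 3 (adjusted p up to 0.0715 and 0.0784). LeSUT1 and LHA4, a proton pump of the plasma membrane, rose in the NGSs and were not DEGs in the GSs. LeSUT1 had 218, 263 and 194 FPKM at 48 h in the NGSs, against 90.3, 53.9 and 51.6 FPKM at 0 h, and differed by -2.07 ± 0.36 (SE; FDR 0.00144). LHA4 had 328, 379 and 195 FPKM at 48 h in the NGSs, against 71.2, 64.9 and 61.1 FPKM at 0 h, and differed by -1.68. In the GSs, LHA4 had 193, 261 and 178 FPKM at 48 h, against 176, 132 and 150.2 FPKM at 0 h.

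**Figure D5:**
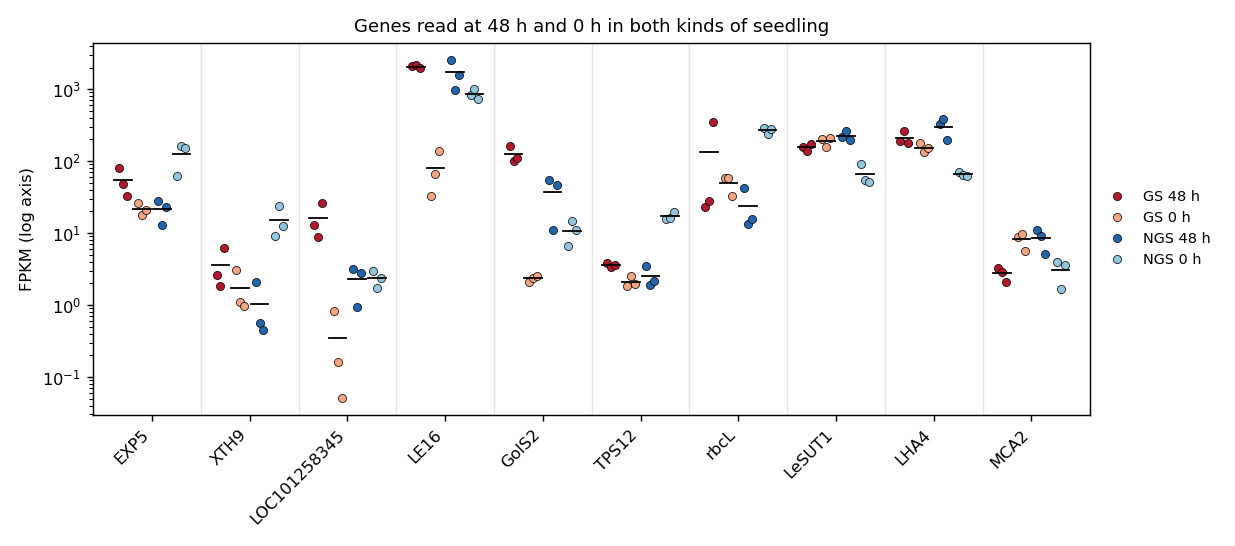
FPKM (log axis) at 48 h and 0 h in GSs and NGSs for genes named for the difference of the responses, with rbcL. Points are libraries (from the left: GS 48 h, GS 0 h, NGS 48 h, NGS 0 h; 3 each) and lines are group means. EXP5 is higher at 48 h than at 0 h in the GSs and lower in the NGSs, while LeSUT1 overlaps between the times in the GSs and is higher at 48 h in the NGSs.

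Plastid-encoded and trichome genes held many falls in the NGSs. In the GSs, the median of the trichome markers was -0.07, and that of the plastid-encoded genes was 0.09 but -0.45 without 48 h library 12. Of 54 plastid-encoded genes, 19 differed in the response, all higher in the GSs, but 3 did so without NGS 48 h library 11 and 11 without NGS 0 h library 3; in the NGSs 1 rose and 31 fell (median -1.38). In rbcL, the NGSs had 42.1, 13.2 and 15.5 FPKM at 48 h, against 287, 242 and 278 FPKM at 0 h, so the difference came with 0 h values that were several times higher in the NGSs. TPS12, a terpene synthase of trichomes, had 3.51, 1.9 and 2.16 FPKM at 48 h in the NGSs, against 15.8, 16.2 and 19.9 FPKM at 0 h; in the GSs it had 3.89, 3.38 and 3.62 FPKM at 48 h, against 1.86, 2.5 and 1.98 FPKM at 0 h, and the difference was 2.97 ± 0.55 (SE). Of 8 trichome markers, TPS12 was the 1 that differed, while 6 fell in the NGSs (median -2.13). The summed FPKM of the trichome markers in the NGSs was 24.1, 12.6 and 20.8 at 48 h, against 135, 63.3 and 124 at 0 h, and the part of trichome cells in the other differences was not tested. Of the 8 ribosomal genes, 0 differed by limma or by voom, while 6 differed at an unadjusted p under 0.05: all 8 fell in the NGSs (median -1.70) and 6 in the GSs, which does not show that the changes were equal.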

How the data were processed

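RNA from leaves of GSs and NGSs was sequenced by the authors on an Illumina HiSeq instrument, with a library kit that does not mark strand, and reads were mapped with HISAT to the tomato assembly SL 2.0. The submitters' processing notes name HISAT2 2.0.5, featureCounts 1.5.0-p3, DESeq2 1.16.1 and STAR-Fusion 1.2.0. The authors deposited FPKM values of 32246 genes in 36 libraries, and these FPKM were made with a library size that equals a median-of-ratios size factor times a constant, so the values of a gene are already scaled between libraries. How reads shared by near-identical genes were counted is not given in the sources used here, and without strand the reads of overlapping genes cannot be told apart.

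Reads per gene were recovered from the FPKM: 100% of values gave whole reads within 0.01 reads. Library totals on genes were 15229640 to 26661418 reads. Identifiers were matched to a reference table, which names 2941 of 28942 matched genes and was used for names only, since its assembly differs.

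The 20090 genes that reached an FPKM of 1 in 3 or more libraries were tested with limma (lmFit, eBayes with a trend) on the log2 scale, as log2(FPKM + 1), over 12 group means of all 36 libraries, with 24 residual degrees of freedom and p adjusted by Benjamini and Hochberg over all genes of each comparison (FDR). DEGs needed an FDR under 0.05 and a log2 fold change of at least 1 in size. The comparisons were 48 h against 0 h and against 24 h in the GSs, and the difference of the 48 h response between GSs and NGSs. The fit was tested on simulated data with known changes. The SE and p-values rest on a spread between replicates that was pooled over all 12 groups. They do not measure the spread of the 6 libraries compared alone, so a gene even in these libraries can have a large SE.

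Alternatives were a pseudocount of 0.1, no filter on low values, a mean FPKM of at least 5, only the libraries compared, quantile normalization, library totals as the scale, voom on the recovered reads, FDR alone, each library left out in turn and, for the response, the replicate number as a block. The recovered reads were tested with voom only, and a count model such as DESeq2 was not run on them.

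Members and gene lists were chosen with earlier results of these data known. Named genes are those the study names by identifier, the 15 largest rises and 15 largest falls among named DEGs whose groups did not overlap and whose higher mean was at least 10 FPKM, up to 4 DEGs of each list in each direction, and up to 5 named genes a direction with the smallest p for the response. Further members of the lists, the unnamed genes with the largest changes, rbcL and RBCS4 were named after their values were seen. One member of the ribosomal list is counted but not reported here by name. Roles of genes are general background. The versions were R 4.3.3, limma 3.58.1, Python 3.11.15, NumPy 2.4.6, pandas 2.3.3 for tables and matplotlib 3.10.9 for plots.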

Additional observations from a re-analysis of the deposited data

Results flagged for a closer look

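The 48 h response differed between the GSs and NGSs, by the test of that difference, in 1183 genes, of which the named ones follow as log2 differences, GSs minus NGSs. Positive differences were those of EXP5 (3.65), XTH9 (3.71), LyesC2r007 (3.56), TPS12 (2.97), ABCG42 (1.99), LE16 (4.0), GolS2 (3.71), SAM3 (1.79), LOC101258345 (3.66), LOC101258632 (4.07), SHINE3 (2.23), NAC2 (2.06), JAZ2 (3.46) and the lipid transfer protein genes ltpg1 (2.68) and TSW12 (2.94). Negative differences were those of MCA2 (-2.48), LeSUT1 (-2.07), ABCG21 (-2.30), LHA4 (-1.68), AKR1 (-1.26) and Rcr3 (-5.47). The sign does not tell in which kind of seedling the change was larger. The calls of GolS2, JAZ2, LOC101258345, LOC101258632, NAC2, Rcr3, SAM3, SHINE3 and TSW12 were lost when NGS 48 h library 11 was left out. That of JAZ2 did not hold in 9 of the 12 leave-one-out fits (adjusted p up to 0.150) and in 5 of 8 other settings. The calls of LyesC2r007, LOC101258345 and Rcr3 were lost under voom on the recovered reads. That of LOC101258632 was lost with a pseudocount of 0.1, and that of SAM3 with only the libraries compared. Further losses came without NGS 0 h library 3 for LOC101258632, NAC2 and Rcr3, without GS 0 h library 2 for Rcr3 and SHINE3, without GS 0 h library 3 for SAM3, and without GS 48 h library 11 or NGS 0 h library 2 for TSW12 (adjusted p up to 0.0910).

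The differences were not of a kind. EXP5 was higher at 48 h in the GSs (81.4, 47.7 and 32.6 FPKM at 48 h, against 25.8, 17.6 and 21 FPKM at 0 h) and lower in the NGSs (28.2, 12.8 and 22.9 FPKM at 48 h, against 61.5, 162 and 152 FPKM at 0 h). MCA2, a calcium channel gene known from Arabidopsis, had 3.3, 2.85 and 2.08 FPKM at 48 h in the GSs, against 8.94, 9.83 and 5.71 FPKM at 0 h, and 11.1, 9.14 and 5.07 FPKM at 48 h in the NGSs, against 3.92, 1.66 and 3.62 FPKM at 0 h. ABCG42, a transporter gene, had 4.3, 4.74 and 4.64 FPKM at 48 h in the GSs, against 6.13, 2.42 and 3.76 FPKM at 0 h, and 2.45, 2.12 and 3.09 FPKM at 48 h in the NGSs, against 6.2, 15.4 and 14.8 FPKM at 0 h. The log2 fold change of Rcr3 at 48 h was -3.40 in GS leaves but 2.07 in NGS leaves.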

How the results depend on the processing

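The count of 2333 DEGs at 48 h against 0 h in the GSs, and its split into 1430 higher and 903 lower, stayed within 1.5 times under every alternative run except FDR alone, which gave 5035 genes (2543 higher and 2492 lower). The 160 DEGs among the listed genes were recounted with a pseudocount of 0.1 (177), with only the libraries compared (152) and with quantile normalization (148). With 1 library left out, the count was 2037 to 2347, with 1213 to 1391 higher and 783 to 980 lower, and 129 to 148 of the listed genes. The share of higher calls, 61.3%, was 56.9% with quantile normalization and 55.5% with library totals as the scale. voom on the recovered reads called 2591 genes, 1513 higher and 1078 lower. Of 171 DEGs named or listed, 107 kept their call in all 6 fits with a library left out and 64 lost it in at least 1, and 39 lost it under another alternative; 0 changed direction.

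Against 24 h, the share of higher calls, 73.7%, was 35.3% with library totals as the scale (530 higher and 972 lower), where the median of all genes shifted to -0.22 on the log2 scale, and 58.1% with quantile normalization. A pseudocount of 0.1 gave 631 lower genes, and FDR alone 3411 genes, 1810 higher and 1601 lower. With 1 library left out, the counts were 774 to 1603 in all, 530 to 1082 higher and 244 to 521 lower, with 774 and 530 without GS 24 h library 9. The cause of these shifts was not tested.

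For the difference of the responses, voom gave 788 genes, 474 of them higher, a mean FPKM of at least 5 gave 502 higher, and FDR alone 712 lower. Quantile normalization moved the share of higher calls to 52.7%, against 68.4%. With 1 of the 12 libraries left out, the counts were 319 to 1509 in all, 231 to 975 higher and 88 to 600 lower. The lowest counts, 319, 231 and 88, came without NGS 48 h library 11, and the 600 lower genes without NGS 48 h library 12. Of 21 genes named for this difference, 9 lost their call without some library. The cause of these shifts was not tested.

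No paired analysis was possible because the GS libraries of 48 h (10 to 12), 24 h (7 to 9) and 0 h (1 to 3) share no replicate numbers. GS and NGS libraries of the same time do share them. The residual correlations of same-numbered GS and NGS libraries were 0.209, 0.161 and -0.008 at 0 h and 0.096, 0.185 and -0.084 at 48 h. With 3 libraries a group, these values cannot decide whether the numbers pair the samples, and this was not tested. With the replicate block, 1258 genes differed in the response, 865 higher and 393 lower. The libraries of 6 h carry the same numbers as those of 0 h, so the block also joined these and was not a pairing of GSs and NGSs alone.

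At these depths of 15229640 reads or more per library, a gene such as ARGOS with 4 reads in 3 libraries is at the edge of what can be counted, and fold changes of genes near 0 FPKM are understated.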
